A study of Leucoraja erinaceus with 4 samples.

Results

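The electrosensory organ of the little skate (Leucoraja erinacea), represented by a library of ampullary receptor cells and a library of ampullary canals, was compared with body skin and liver of the same animal. The 2 organ libraries and the 2 other libraries were taken by their tissue labels, and together they are all 4 libraries of the series. Skates and sharks sense weak electric fields with ampullary organs (ampullae of Lorenzini). Each organ is a jelly-filled canal that opens at a pore in the skin and ends in a small chamber lined by electroreceptor cells. The wall of the canal is a tight epithelium that insulates the conducting jelly, so the receptor cells see the voltage between the pore and the body. The receptor cells respond through voltage-gated calcium channels and calcium-activated potassium channels, and they signal to afferent nerve fibres at ribbon synapses. Skin is the other epithelium of the body surface, and liver makes plasma proteins and, in cartilaginous fishes, stores oil.

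All libraries came from 1 adult animal of no stated genotype or treatment, and each tissue gave 1 library made from 1 µg of total RNA. The receptor-cell sample is labelled as electroreceptor cells, and the canal sample is the structural tube that leads to them. The skin was taken from a region without electroreceptors, and the labels give a weight of 4 mg for the liver piece. Receptor cells and canals are different tissues of 1 organ and are not replicates of each other, and the same holds for skin and liver. No p-value was therefore computed, and no interval below covers how much animals, dissections or library preparations vary.

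Reads were assigned by the authors to an assembled transcriptome, and its units are called assembled genes here. A single gene can give several of them, as fragments or close copies, so their number is not a number of genes. The identifiers are assembly numbers, and 0 of them were found among the 23250 genes in the reference table, so gene names, functions and sequences were not analysed here. The labelled tissues could not be checked against marker genes for the same reason. In a bulk sample, fewer cells of a type and less RNA per cell cannot be told apart. The libraries held between 11071249 and 12303108 reads. Of 186064 assembled genes, the 36326 with 10 or more reads in any library were compared. The cut of 10 reads left out 1696 assembled genes whose highest library had 9 reads and took in 1440 whose highest library had exactly 10.

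Each assembled gene was judged by its less favourable values. To count as higher in the organ, the lower of receptor cells and canals had to exceed the higher of skin and liver, and to count as lower in the organ the reverse had to hold. Levels are counts per 1000000 reads (CPM) of a library size scaled with TMM factors. Gaps were taken between values of log2(CPM + 0.5), a scale on which gaps of low values come out too small. In 7774 assembled genes (21.4% of those compared) both organ libraries stood above both others, and in 5497 (15.1%) both stood below. The values of the organ and of the others overlapped in the remaining 23055 (63.5%). At least 2-fold gaps were present in 1701 assembled genes higher in the organ (4.68%) and in 1137 lower in the organ (3.13%). At least 4-fold gaps were present in 514 higher (1.41%) and 241 lower (0.663%), and at least 16-fold gaps in 78 higher (0.215%) and 25 lower (0.0688%). At least 64-fold gaps were present in 13 higher (0.0358%) and 3 lower (0.00826%). Leaving out a library loosens the rule by construction, and the 4-fold counts were then 2119 higher and 728 lower without receptor cells, 2124 and 669 without canals, 1360 and 2884 without skin, and 1009 and 2314 without liver. Around the 4-fold line the counts were dense, with 51 assembled genes less than 0.1 above it and 54 less than 0.1 below it (log2) on the higher side, and 32 above and 38 below on the lower side.

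**Figure D1:**
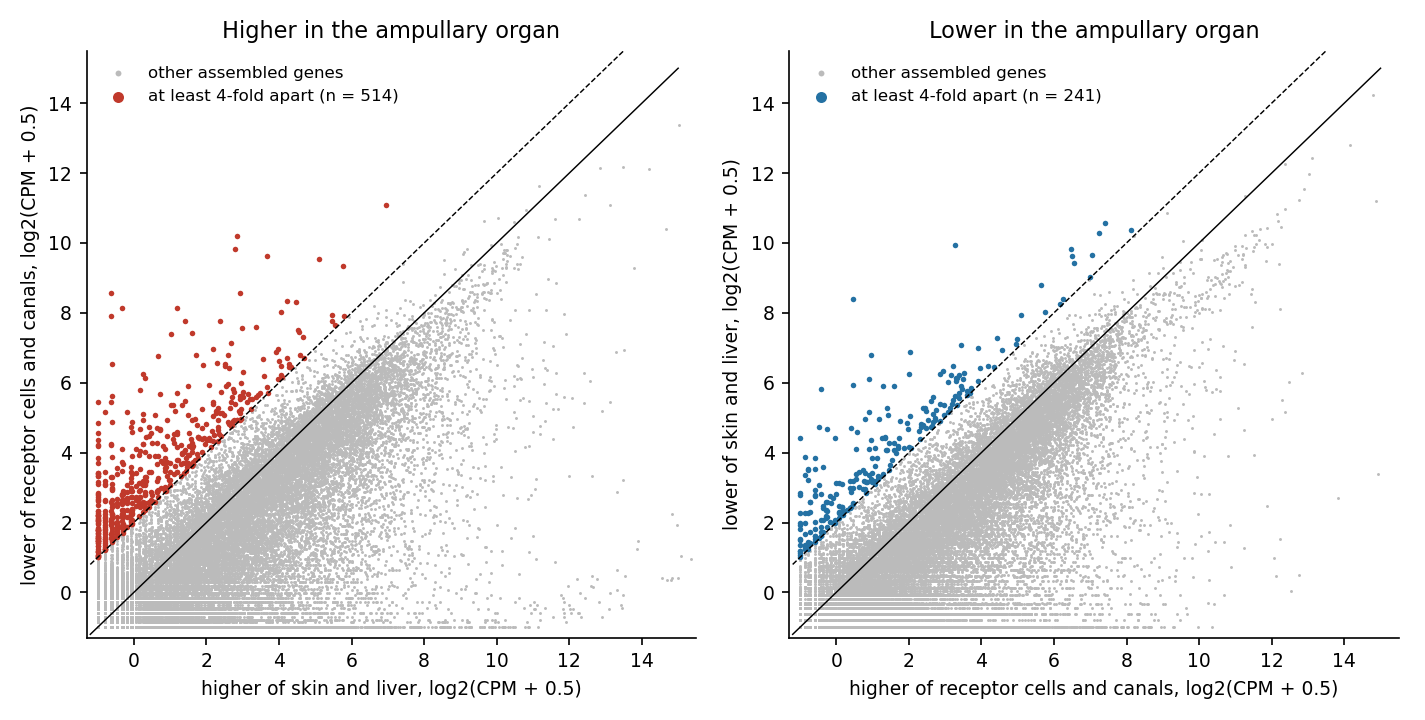
Each point is 1 of 36326 assembled genes. Left, the lower value of receptor cells and canals against the higher value of skin and liver. Right, the lower value of skin and liver against the higher value of receptor cells and canals. Both axes are log2(CPM + 0.5). The solid line marks equal values and the dashed line a 4-fold gap. The 514 coloured points on the left reach larger gaps than the 241 on the right.

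The 514 assembled genes at least 4-fold higher in the organ made up a larger share of the canal library than of the receptor-cell library. They took 5.52% of the receptor-cell library and 10.8% of the canal library, against 0.148% of the skin library and 0.0498% of the liver library. Most of this came from the 78 with 16-fold gaps, which took 3.24% of the receptor-cell library and 6.86% of the canal library, against 0.0323% of the skin library and 0.00445% of the liver library. Single assembled genes carried much of these shares. Assembled gene c80805_g1, singled out after its values were seen, had 14193 receptor-cell reads and 388787 canal reads, against 158 skin reads and 67 liver reads. It alone was 29.4% of the canal reads of the 514, and without it they took 7.61% of the canal library. In receptor cells the corresponding one was c76333_g1, also singled out after its values were seen, with 124629 receptor-cell reads and 3487 canal reads, against 12 skin reads and 12 liver reads. It was 18.5% of the receptor-cell reads of the 514, which took 4.5% of that library without it. The 10 most abundant members held 44.3% of the set's reads in receptor cells and 65.0% in canals.

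The typical member was of modest abundance. The lower of its organ values had a median of 9.62 CPM, with the middle of the distribution between 4.21 and 27.5 CPM (quartiles) and a range of 1.53 to 2188 CPM. The higher of its skin and liver values had a median of 0.615 CPM and reached at most 122.9 CPM. The median gap was 2.68 on the log2 scale, and the quartiles were 2.29 and 3.37. In both organ libraries 315 of the 514 had 100 reads or more and 56 had 1000 or more. No read was found in skin and liver for 76, and 192 had at most 3 reads in each of them. Where skin and liver differed, the higher one was skin in 290 and liver in 148.

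By the rule used when no gene names exist, 2 assembled genes per direction were named for the fold whose lower interval end, or bound where a library had 0 reads, was highest. In addition, 1 per direction was named for the highest lower value of the 2 libraries of the high side. Assembled gene c86908_g1 (1600 bases, 1 transcript) had 23807 receptor-cell reads and 4720 canal reads, against 0 skin reads and 1 liver reads. Canals, the lower organ library, stood at least 1648-fold above the limit that 0 skin reads allow (3 reads), and exceeded liver 2541-fold (95% counting interval 455.8 to 100400, resting on 1 liver read). Per length, it was listed at 1608 TPM in receptor cells and 291.1 TPM in canals, against 0 TPM in skin and 0.08 TPM in liver.

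Assembled gene c78250_g1 (3119 bases) had 4330 receptor-cell reads and 3000 canal reads, against 1 skin reads and 1 liver reads, which is 239.7 and 241.4 CPM against 0.0768 and 0.15 CPM. Per length, its TPM was 139.2 in receptor cells and 88.5 in canals, against 0.03 in skin and 0.04 in liver. Receptor cells and canals were alike in CPM, which carries the TMM factors, and not in TPM, which does not. Its length was 3119 bases in each library. Receptor cells, the lower organ library in CPM, exceeded liver 1603-fold. The exact 95% counting interval of this fold was 287.6 to 63340, wide because it rests on 1 liver read.

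Among members of the set higher in the organ, c76333_g1 stood highest in receptor cells alone (6900 CPM) and c80805_g1 in canals alone (31290 CPM). The member whose lower organ value was highest was c87155_g1 (4 transcripts, mean length 3818 bases). It had 39524 receptor-cell reads and 59851 canal reads, against 1599 skin reads and 16 liver reads, or 2188 and 4817 CPM against 122.9 and 2.39 CPM. It was present in skin at a measurable level, and receptor cells exceeded skin 17.8-fold (95% counting interval 16.9 to 18.7). Its level in liver was far below that in skin, so skin alone set the size of the gap.

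The 241 assembled genes at least 4-fold lower in the organ took smaller shares of reads than the 514 did in their own tissues. They took 0.25% of the receptor-cell library and 0.177% of the canal library, against 2.97% of the skin library and 2.0% of the liver library. The 25 with 16-fold gaps took 0.00413% of the receptor-cell library and 0.00141% of the canal library, against 0.277% of the skin library and 0.445% of the liver library. The higher of the organ values had a median of 1.29 CPM (quartiles 0.277 and 5.63), and the lower of the skin and liver values a median of 12.1 CPM (quartiles 4.92 and 38.5). The median gap was 2.5 on the log2 scale. In both skin and liver 133 of the 241 had 100 reads or more and 22 had 1000 or more. No read was found in receptor cells and canals for 15. The higher organ library was receptor cells in 132 and canals in 94. The 10 most abundant members held 62.9% of the set's skin reads and 51.6% of its liver reads.

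Assembled gene c93197_g7 (3 transcripts), the first in the direction of skin and liver, had 16 receptor-cell reads and 6 canal reads, against 4415 skin reads and 3113 liver reads, or 0.886 and 0.483 CPM against 339.3 and 465.4 CPM. Skin exceeded receptor cells 383-fold (95% counting interval 235.6 to 670.6), the ratio of skin over receptor cells. Its abundance-weighted length was 2128 bases in receptor cells and 926.9 in canals, against 2271 in skin and 3066 in liver, though the organ values rest on few reads.

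The next in this direction was c84442_g4 (2 transcripts, mean length 413 bases), with 4 receptor-cell reads and 0 canal reads, against 340 skin reads and 418 liver reads. Skin exceeded receptor cells 118-fold (95% counting interval 45.7 to 435.5, the ratio of skin over receptor cells) and stood at least 108.2-fold above the limit of 3 reads that 0 canal reads allow. Among members of this set, c86747_g1 stood highest in liver alone (3100 CPM). The lower of the skin and liver values was highest in c76049_g1 (1620 bases). Assembled gene c76049_g1 had 1396 receptor-cell reads and 2113 canal reads, against 70459 skin reads and 10166 liver reads. It was not scarce in the organ, at 77.3 CPM in receptor cells and 170.1 CPM in canals, against 5414 CPM in skin and 1520 CPM in liver. Liver exceeded canals 8.94-fold (8.53 to 9.37, the ratio of liver over canals).

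**Figure D2:**
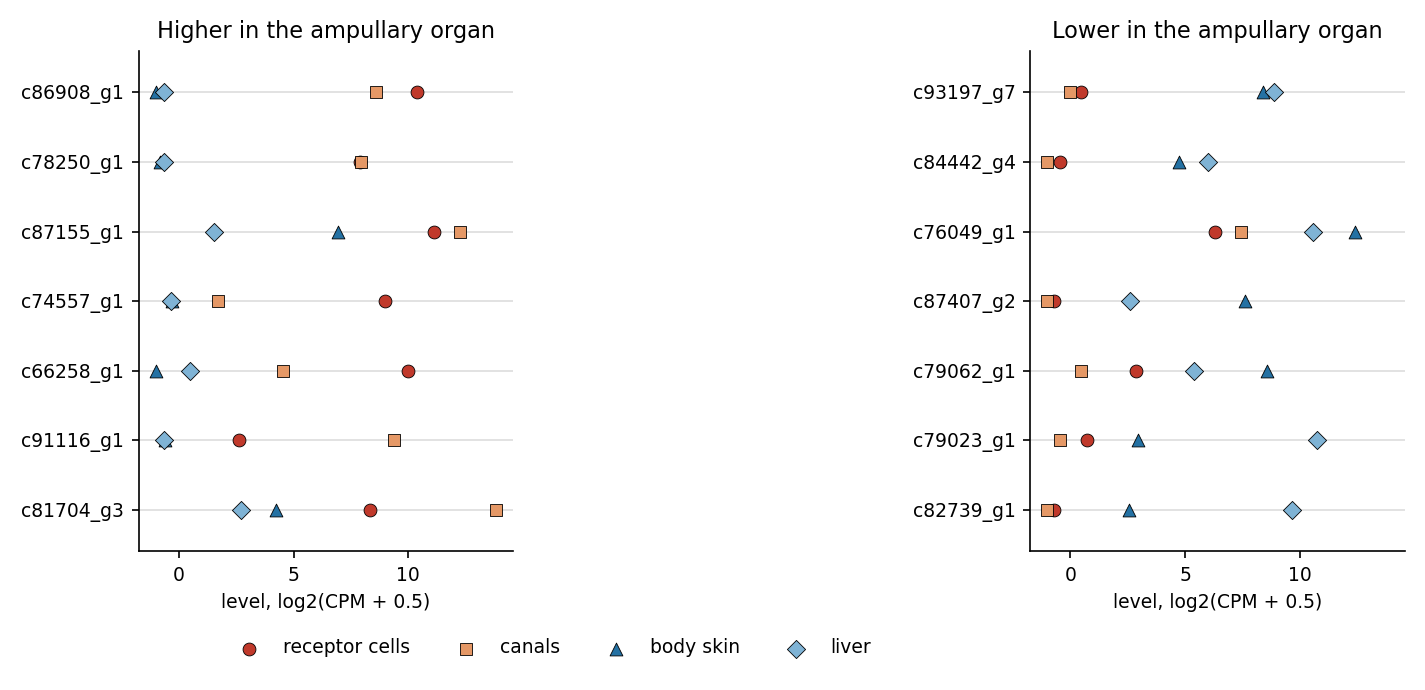
Level in log2(CPM + 0.5) of the 14 assembled genes named by rule, with 1 marker per library. Left, those higher in the organ. Right, those lower in the organ. In the left panel both organ markers lie right of both others in every row, as the 4-fold rule fixes. On this scale the receptor-cell and canal markers coincide for c78250_g1 and are over 100-fold apart for c74557_g1 and c91116_g1.

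A count of unscaled reads, added after the values above were seen, gave the presence and absence of assembled genes without any scaling. At least 10 reads in both organ libraries and none in skin and liver were found for 186 assembled genes (0.512% of those compared). At least 10 reads in both skin and liver and none in the organ were found for 27 (0.0743%). With up to 3 reads allowed in each of the low libraries, the numbers were 790 (2.17%) for the organ and 142 (0.391%) for skin and liver. At a minimum of 100 reads and none on the other side they were 18 (0.0496%) for the organ and 1 (0.00275%) for skin and liver, and with up to 3 reads allowed 48 (0.132%) and 4 (0.011%). At 1000 reads with none on the other side there was no assembled gene in either direction, and with up to 3 reads allowed there were 4 (0.011%) for the organ and 0 for skin and liver. The libraries also differed in how many assembled genes had any read, 98988 in receptor cells and 65961 in canals, against 68576 in skin and 67936 in liver. Equal read cuts are not equal levels. With TMM factors, 3 reads were 0.166 CPM in receptor cells and 0.241 CPM in canals, against 0.231 CPM in skin and 0.449 CPM in liver. A read cut thus stood for a higher level in liver than in the other libraries. The part of these inequalities in the difference between 186 and 27 was not tested.

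Within the 514, which part of the organ was higher depended on the scaling. With TMM factors receptor cells were the higher part in 187 (36.4%) and canals in 327 (63.6%). With library totals the numbers were 258 (50.2%) and 256 (49.8%), and with the deposited TPM 273 (53.1%) and 241 (46.9%). The difference of receptor cells minus canals had a median of -0.52 on the log2 scale (quartiles -1.68 and 0.49), against 0.11 over all 36326 assembled genes (quartiles -0.65 and 1.01), both with TMM factors. The median of the set lay below that of all assembled genes by 0.63 with TMM factors, by 0.50 with library totals and by 0.52 with TPM, where the medians were 0.0080 against 0.50, and 0.15 against 0.66, for the set and for all. The rule that chose the 514 used the lower of these same organ values. Contrasts of the set with all assembled genes, above and below, are therefore not independent of that choice. The part of the choice in them was not tested. The counts that follow use TMM factors. Receptor cells and canals lay within 2-fold of each other in 217 of the 514 (42.2%) and in 56.3% of all. They were at least 4-fold higher in receptor cells in 49 (9.53%, against 8.53% of all) and at least 4-fold higher in canals in 104 (20.2%, against 6.51% of all). With library totals these counts of the set were 77 toward receptor cells and 64 toward canals. Among assembled genes with 100 reads or more in both organ libraries, the share within 2-fold was 39.4% of 315 in the set and 69.2% of all 8793. Among those well covered in both, at least 4-fold differences toward canals were present in 22.5% of the set and in 6.45% of all.

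The named members with the largest inequality inside the organ follow, those higher in receptor cells before those higher in canals. Assembled gene c74557_g1 (1435 bases) had 9270 receptor-cell reads and 34 canal reads, against 4 skin reads and 2 liver reads. Receptor cells exceeded canals 187.6-fold (134.1 to 271), while canals exceeded skin 8.9-fold (3.18 to 34.5), and its gap of 2.0 in log2(CPM + 0.5) lay at the 4-fold line and was 1.96 with library totals, 1.83 with TPM and 1.04 with a pseudocount of 2. Assembled gene c66258_g1 (4002 bases) had 18047 receptor-cell reads and 285 canal reads, against 0 skin reads and 6 liver reads, a 43.6-fold excess of receptor cells over canals (38.8 to 49.1).

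Toward canals, c91116_g1 (2398 bases) had 104 receptor-cell reads and 8287 canal reads, against 2 skin reads and 1 liver reads. Canals exceeded receptor cells 115.8-fold (95.5 to 141.9), the ratio of canals over receptor cells. Assembled gene c81704_g3 (2362 bases) had 5866 receptor-cell reads and 179847 canal reads, against 236 skin reads and 40 liver reads. It was 1.46% of the canal library, and canals exceeded receptor cells 44.6-fold (43.4 to 45.8). Per length it was listed at 255.3 TPM in receptor cells and 7166 TPM in canals, against 10.5 TPM in skin and 2 TPM in liver.

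**Figure D3:**
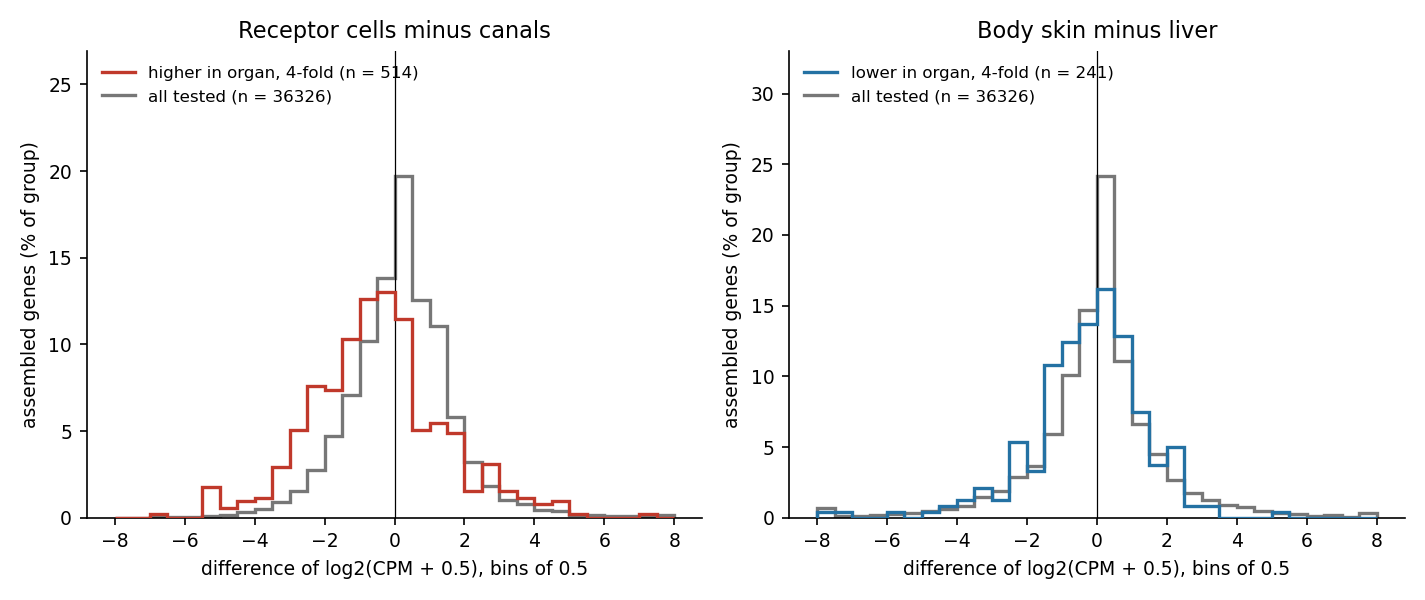
Percentage of assembled genes (bins of 0.5) by the difference of log2(CPM + 0.5) between 2 tissues. Left, receptor cells minus canals in the 514 assembled genes higher in the organ and in all 36326. Right, skin minus liver in the 241 lower in the organ and in all. Differences beyond 8 are placed in the end bins. With the TMM factors used here the left set has a median of -0.52, against 0.11 of all. Each set was chosen by values of these same libraries.

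Within the 241, the balance of skin and liver also depended on the scaling. Skin minus liver had a median of -0.07 on the log2 scale with TMM factors (quartiles -1.06 and 0.71), 0.74 with library totals and 0.63 with TPM, against 0, 0.46 and 0.51 over all assembled genes compared, in that order. With TMM factors, 133 of the 241 (55.2%) lay within 2-fold, against 60.1% of all assembled genes compared. Skin was the lower of both in 127 and liver in 114, against 71 and 170 with library totals. At least 4-fold differences inside this pair were present in 17 (7.05%) toward skin and in 30 (12.4%) toward liver, against 9.24% and 9.92% of all. With library totals these counts of the set were 40 toward skin and 15 toward liver. The 241 were chosen by the lower of these same skin and liver values, so contrasts with all are not independent of the choice.

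In the direction of skin, c87407_g2 (2 transcripts) had 2 receptor-cell reads and 0 canal reads, against 2545 skin reads and 37 liver reads, 35.4-fold higher in skin than in liver (25.6 to 50.3). Its gap to the organ was 3.3 in log2(CPM + 0.5), and 1.46 with TPM and 1.83 with a pseudocount of 2. Assembled gene c79062_g1 (2103 bases) had 123 receptor-cell reads and 11 canal reads, against 4968 skin reads and 279 liver reads. Its liver value exceeded its receptor-cell value 6.13-fold (4.94 to 7.64), and its gap of 2.53 on the log2 scale was 1.28 with library totals, 1.87 without the dominant assembled genes and 1.31 with TPM, all under the 4-fold line.

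In the direction of liver, c79023_g1 (2353 bases) had 21 receptor-cell reads and 3 canal reads, against 95 skin reads and 11512 liver reads, 235.8-fold higher in liver than in skin (192.7 to 291.7). Assembled gene c82739_g1 (1277 bases) had 2 receptor-cell reads and 0 canal reads, against 71 skin reads and 5408 liver reads, 148.2-fold higher in liver than in skin (117.3 to 190.1). The gap of c79023_g1 to the organ was 2.23 in log2(CPM + 0.5), and its skin value exceeded its receptor-cell value 6.28-fold (3.88 to 10.6). It was under the 4-fold line with library totals (1.96), TPM (1.74) and a pseudocount of 2 (1.56). The gap of c82739_g1 was 3.29, and 1.82 with a pseudocount of 2.

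The share of assembled genes that passed the 4-fold rule was larger at higher abundance in both directions. With a mean of under 1 CPM over the 4 libraries, 3 of 12193 were higher in the organ (0.0246%) and 4 lower (0.0328%). From 1 to 10 CPM the shares were 1.69% higher and 0.743% lower, from 10 to 100 CPM 2.62% and 1.17%, and at 100 CPM or more 3.07% and 2.05%. By construction of the scale, a 4-fold gap over 0 needs 27.1 receptor-cell reads and 18.6 canal reads, against 19.5 skin reads and 10.03 liver reads. This lowers the shares at low abundance. The classes use the mean of the same 4 libraries as the rule, so they are not independent of it. By any amount, the share higher in the organ did not rise over these classes, at 20.9%, 22.3%, 21.8% and 14.7%. The share lower in the organ by any amount was 10.4%, 16.8%, 18.3% and 19.1%.

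The share that was higher in the organ was also larger among longer assembled genes. Of 2018 assembled genes of 4000 bases or more, 71 (3.52%) were at least 4-fold higher in the organ and 12 (0.595%) lower. From 2000 to 4000 bases the shares were 2.59% higher and 1.0% lower, from 1000 to 2000 bases 1.46% and 0.865%, from 500 to 1000 bases 0.883% and 0.583%, and under 500 bases 0.349% and 0.105%. The median length was 1829 bases in the 514 and 1392 bases in the 241, against 1044 bases over all 36326. Longer assembled genes also had more reads. Within the class of 10 to 100 CPM the median lengths were 2403 bases in the set higher in the organ, 1942 in the set lower in the organ and 2281 in all, and within 1 to 10 CPM they were 1321, 992 and 1048. In the top class, at 100 CPM or more, they were 2611, 2101 and 2484. The part of abundance in the length difference over the whole sets was not tested beyond these classes.

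**Figure D4:**
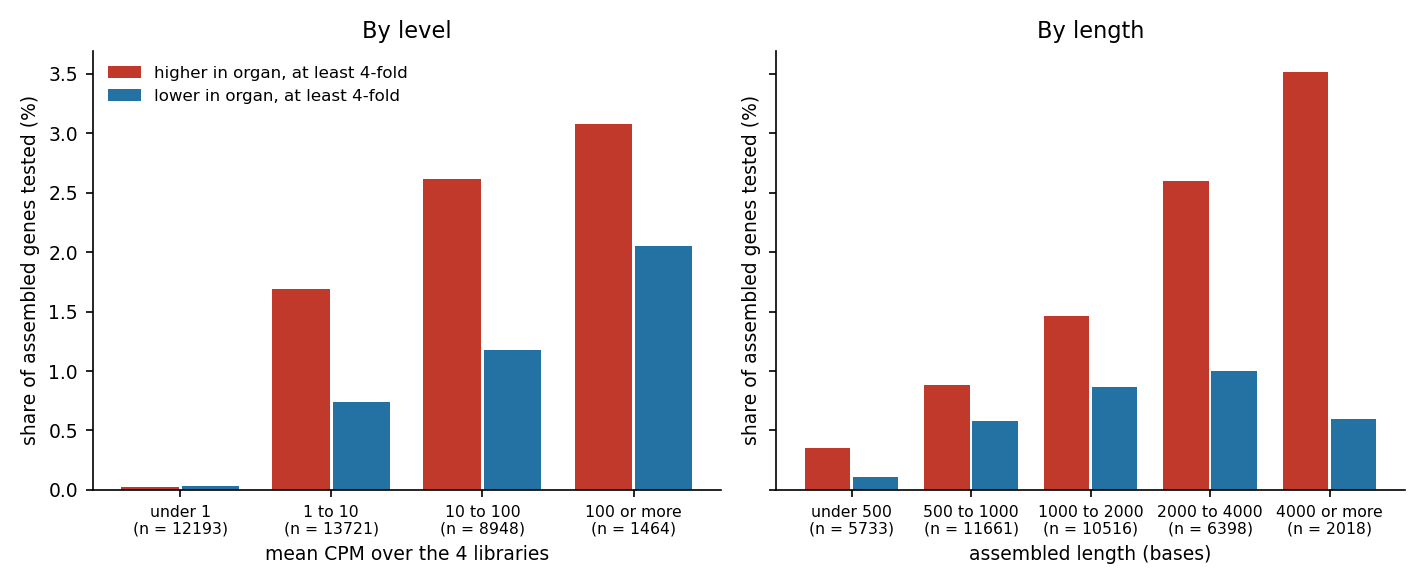
Percentage of assembled genes at least 4-fold higher or lower in the organ, by mean CPM over the 4 libraries (left) and by assembled length in bases (right), with the number compared under each class. Bars start at 0. At 4000 bases or more, 3.52% were higher and 0.595% lower.

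Assembled genes with several transcripts were 47.1% of the 514 and 41.9% of the 241, against 38.8% of all compared. The part of an identifier before "_g" names its assembly cluster, a group of related sequences. The 514 came from 491 clusters, of which 22 gave more than 1 member (45 members in all, at most 3 from a cluster). The 241 came from 238 clusters, of which 3 gave 2 members each. Other compared assembled genes of the clusters with a member higher in the organ numbered 192, and in 60 of them (31.2%) both organ libraries also stood above both others, against 21.4% of all. In 26 of the 192 both organ libraries stood below both others. For the clusters with a member lower in the organ, 37 of 149 (24.8%) went the same way, against 15.1% of all, and 16 went the opposite way. The shares of all include the members of the sets themselves. A member of each set was found together in 3 clusters.

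The abundance-weighted length of an assembled gene shifts with the abundance assigned to its longer or shorter assembled transcripts. Assembled transcripts can be fragments or close copies, and whether a shift reflects transcript use in the tissue was not tested. Among 2749 assembled genes with more than 1 transcript and 100 reads or more in every library, both organ libraries had longer transcripts than both others by at least 1.2-fold in 20 (0.728%) and shorter ones in 14 (0.509%). Leaving out a library also changes which assembled genes have enough reads. Without receptor cells the counts were 53 longer (1.885% of those then eligible) and 125 shorter (4.447%), and without canals 40 (1.371%) and 62 (2.125%). They were 97 (3.347%) and 51 (1.76%) without skin, and 92 (2.449%) and 59 (1.571%) without liver. By any amount, the organ was longer without overlap in 442 (16.1%) and shorter in 539 (19.6%). Levels of the organ and the others (means of log2 values) lay within 2-fold in 16 of the 20 and 10 of the 14, against 80.4% of the 2749. The assembled gene with the largest difference toward longer transcripts, singled out after its values were seen, was c86393_g1 (7 transcripts), at 3215 bases in receptor cells and 3199 in canals, against 1159 in skin and 1856 in liver. Its reads were 395 in receptor cells and 197 in canals, against 194 in skin and 248 in liver . In the other direction it was c94496_g1 (3 transcripts), also singled out after its values were seen, at 1192 bases in receptor cells and 1573 in canals, against 2450 in skin and 2334 in liver.

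Inside the organ, the abundance-weighted length in the 514 was about as often longer in receptor cells as in canals. Of 155 members with more than 1 transcript and 100 reads or more in both organ libraries, 15 (9.68%) had longer transcripts in receptor cells by 1.2-fold or more and 16 (10.3%) had longer ones in canals. Over all 4565 such assembled genes these were 7.1% and 5.28%.

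Each part of the organ alone passed the 4-fold rule far more often than both together. By construction the joint count cannot exceed that of either part, since both parts must pass. Receptor cells were at least 4-fold above skin and liver in 2227 assembled genes (6.13%), and canals in 2285 (6.29%), and these comparisons share the skin and liver libraries. Receptor cells were at least 4-fold below both in 616 (1.7%) and canals in 777 (2.14%). With 1 tissue on the other side, both organ libraries were at least 4-fold above skin in 962 (2.65%) and at least 4-fold below it in 2098 (5.78%). Against liver they were at least 4-fold above in 1405 (3.87%) and below in 2885 (7.94%). The organ lay between the other tissues, at least 4-fold from each, in 24 with liver on top (0.0661%) and in 86 with skin on top (0.237%). More assembled genes were thus lower than higher in the organ against each tissue by itself, and more were higher than lower against both at once. The directions against 1 tissue do not ask the same. Higher in the organ asks both organ libraries to stand above a single library, and lower asks a single library to stand above both. In all these comparisons of a single library with a pair, the direction with the single library on top had the larger count. The part of this in the difference between these 4-fold counts was not tested. By any amount, and with the scaling redone without skin, the organ was above liver in 12375 and below it in 10407. Likewise without liver, the organ was above skin in 11811 and below it in 11166.

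Of the 755 assembled genes past the 4-fold line in either direction, 68.1% were higher in the organ and 31.9% lower. Other scalings moved this split to 86.4% higher and 13.6% lower with library totals, 79.3% to 20.7% with totals that leave out the 50 most dominant assembled genes, and 80.0% to 20.0% with the deposited TPM. With DESeq2 size factors it was 65.3% to 34.7%. The median of organ minus others over all assembled genes compared moved with it, at 0.09 on the log2 scale with TMM factors, 0.52 with library totals, 0.33 without the dominant assembled genes, 0.50 with TPM and 0.05 with DESeq2 size factors, so directions are relative to the scaling chosen. When the means of the log2 values of the 2 organ and the 2 other libraries were compared, in place of the less favourable values, 2302 assembled genes were at least 4-fold higher and 2151 lower (51.7% to 48.3%).

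**Figure D5:**
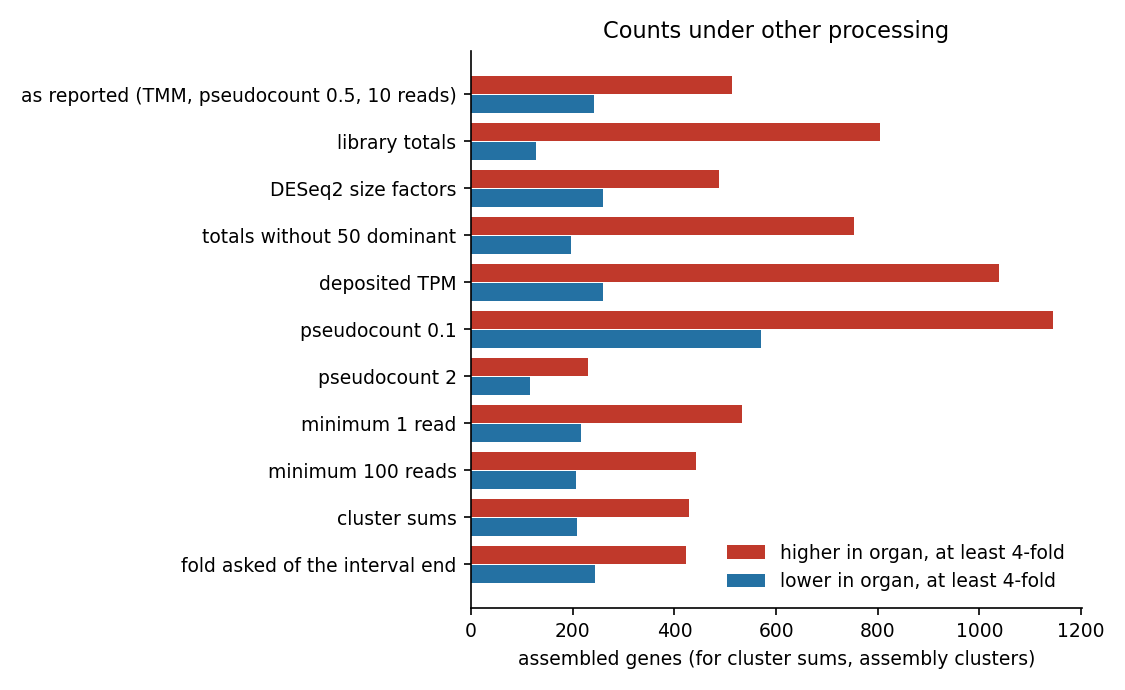
Number of assembled genes (for cluster sums, of assembly clusters) at least 4-fold higher or lower in the organ under the reported processing and 10 alternatives. Bars start at 0. The count of higher ones ranges from 229 to 1144 and exceeds the count of lower ones in each of the settings drawn. Not drawn are means in place of extremes (2302 higher, 2151 lower) and each library left out. Lower ones were more numerous without skin (1360 higher, 2884 lower) and without liver (1009 and 2314). Higher ones were more numerous without receptor cells (2119 and 728) and without canals (2124 and 669).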

How the data were processed

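Poly(A) RNA of 4 tissues of 1 skate was sequenced with a stranded Illumina kit, per the labels' protocols, and the submitters' processing notes name RSEM 1.1.17 for the quantification. For the assembler and the read aligner the sources used here give no name. Per the file headers, the authors deposited expected counts (estimated reads per assembled gene, not normalized), TPM, FPKM and abundance-weighted lengths in bases. FPKM was not used further. Expected counts were rounded, which changed 200 to 287 values in each library by more than 0.001. The filter of 10 or more reads in any library kept at least 98.75% of the reads of each. TMM factors (edgeR 4.0.16, R 4.3.3) multiplied the library totals of receptor cells by 1.476, canals by 1.01, skin by 1.111 and liver by 0.6041. DESeq2 1.42.0 gave alternative size factors. Folds of single assembled genes carry exact 95% Clopper-Pearson intervals on the 2 counts, and 0 reads were taken as allowing 3 (between 0.166 CPM in receptor cells and 0.449 CPM in liver). Intervals cover counting error only, for reads taken as independent, and PCR copies are not independent molecules. Limits for 0 reads hold the allowance of 3 reads and not the counting error of the high library. The code for the counting was checked on simulated data, in which libraries differed only by differences put in and by counting error. Such data do not test the counts reported here, since they hold no variation between animals or preparations.

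The named assembled genes follow a rule on the interval end: those with 100 or more reads in both libraries of the high side, and, inside each set, the 2 per direction whose interval lies farthest from equality. A further 1 per direction was named by the level in the lower of its high libraries. The members, rules and lists were chosen with earlier results of these data known. The lists of cell type markers have no measured member, because the identifiers carry no gene names. Alternatives covered scaling, TPM, pseudocount, read minimum, cluster sums, each library left out, means in place of extremes, and the interval end.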

Additional observations from a re-analysis of the deposited data

Results flagged for a closer look

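The contrast of the organ with its comparison tissue went in opposite directions for some assembled genes, depending on whether that tissue was skin or liver. In 24 assembled genes (0.0661% of those compared) both organ libraries were at least 4-fold above skin and at least 4-fold below liver. In 86 (0.237%) both were at least 4-fold above liver and at least 4-fold below skin. The 86 made up 0.594% of the receptor-cell library and 0.389% of the canal library, against 11.3% of the skin library and 0.0154% of the liver library. The 24 made up 0.1% of the receptor-cell library and 0.0549% of the canal library, against 0.00362% of the skin library and 0.844% of the liver library. That both organ libraries share the direction is part of how these were counted. With 1 library per tissue the difference between the 2 contrasts was not tested.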

How the results depend on the processing

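No paired analysis was possible because every tissue gave a single library. Of 86 values of the 6 counts on levels, 40 were within a factor of 1.5 of the reported count and 46 were not. Scaling by library totals gave 805 higher and 127 lower at 4-fold, 14 lower at 16-fold, and 2768 lower without overlap, and TPM gave 1038 higher at 4-fold, 124 higher at 16-fold and 2911 lower without overlap. A pseudocount of 0.1 gave 1144 higher and 571 lower at 4-fold, and 196 and 54 at 16-fold, and a pseudocount of 2, which shrinks low values by construction, gave 229 and 115, and 31 and 7. A minimum of 1 read, which takes in more assembled genes, gave 16615 higher (11.09% of those it kept) and 11942 lower (7.968%) without overlap. A minimum of 100 reads, which keeps fewer, gave 3607 (22.76%) and 2720 (17.16%). The reported shares were 21.4% and 15.13%. Means in place of extremes gave 2302 and 2151 at 4-fold, and 339 and 302 at 16-fold. Leaving out a library relaxes the rule by construction, and with the filter redone fewer assembled genes were compared. Without receptor cells the counts were 2119 higher and 728 lower at 4-fold, 437 and 72 at 16-fold, and 9586 lower without overlap (31.2%). Without canals they were 2124 and 669, 536 and 48, and 13395 higher (39.33%) and 9215 lower (27.06%) without overlap. Without skin they were 1360 and 2884, 227 and 814, and 12375 (36.54%) and 10407 (30.73%). Without liver they were 1009 and 2314, 141 and 540, and 11811 (34.5%) and 11166 (32.61%). For the remaining movements the cause was not tested. Of the 514, 507 remained with library totals, 471 with TPM, 484 with DESeq2 size factors and 388 with the fold asked of the interval end. Of the 241, 121, 143, 241 and 181 remained, in that order. In alternatives chosen after seeing the data, the median of receptor cells minus canals in the 514 turned to 0.0080 with library totals and 0.15 with TPM, and that of skin minus liver in the 241 to 0.74 with library totals, 0.22 without the dominant assembled genes and 0.63 with TPM. The isoform counts rest on few assembled genes. The 20 longer (0.7275%) and 14 shorter (0.5093%) became 42 and 53 at 1.1-fold, and 2 and 0 at 1.5-fold. A minimum of 200 reads, which leaves fewer eligible, gave 11 (0.7111%) and 4 (0.2586%). A minimum of 50 reads, with more eligible, gave 26 longer (0.636%) and 29 shorter (0.7094%). With other eligible sets, they were 53 and 125 without receptor cells, 40 and 62 without canals, 97 and 51 without skin, and 92 and 59 without liver. The 14 named gaps kept their direction in all 140 values under 10 alternatives, which says little of assembled genes chosen for large gaps. In 48 of these values the gap moved by more than 1.5-fold, and in 15 it was under 4-fold.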
